A study of Mus musculus with 9 samples.

Results

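The subject here is 49 mouse genes for enzymes of the urea cycle and of amino acid breakdown, chosen by function from a list and measured in a liver tumor, in the liver beside it and in normal liver. Of the 49, 45 had a probe set carrying their symbol alone, and these are described here out of 18194 genes with such a probe set. Gls2, Sds, Sdsl and Amt are not analysed here. Each gene was represented by the probe set with the highest mean over 9 arrays.

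RNA came from 3 pieces of a liver tumor and 3 pieces of adjacent liver of a male SART1+/- mouse, and from 3 pieces of liver of a male wild-type mouse. Both animals were C57Bl6, 12 months old, on regular chow and untreated, and tumors appear in male SART1+/- mice from 10 months. Pathology gave hepatocellular carcinoma with severe steatosis for the tumor, cellular alteration with severe steatosis for the adjacent liver, and normal tissue with mild steatosis for the wild-type liver. SART1+/- animals are labelled heterozygous for Sart1, a spliceosome component also called hypoxia-associated factor, and the tumor arose without any carcinogen. The 3 pieces of a group came from the same liver or tumor, so every p-value below measures the spread between pieces, and an effect of genotype, a difference between these 2 animals and the grade of steatosis cannot be told apart.

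The liver takes apart most of the amino acids that reach it after a meal or in fasting. Aminotransferases pass the nitrogen to glutamate and aspartate, the urea cycle turns it into urea, and the carbon skeletons enter glucose synthesis or the citric acid cycle. Many of these enzymes are almost confined to hepatocytes, and the lobule is zoned: urea synthesis and several breakdown enzymes lie mainly around the portal vein, whereas ornithine aminotransferase (Oat) and glutamine synthetase (Glul) lie around the central vein. Methionine is activated here to S-adenosylmethionine, the methyl donor of the cell.

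Values are log2 expression (RMA), and a difference of 1 is 2-fold. Array medians ran from 5.76 to 5.81, arrays of a group correlated at 0.996 to 0.998 across probe sets, and the 40th percentile of an array lay between 5.16 and 5.26. The 3′ minus 5′ difference of Actb, a sign of RNA integrity, was 0.59 ± 0.087 in tumor, 0.85 ± 0.049 in adjacent liver and 0.86 ± 0.025 in wild-type liver (SD, n = 3). That of Gapdh was 0.21 ± 0.013 in tumor, 0.16 ± 0.019 in adjacent liver and 0.27 ± 0.017 in wild-type liver. The part of RNA integrity in the results was not tested. Sart1 read 7.77, 7.71 and 7.75 in tumor, 8.34, 8.39 and 8.38 in adjacent liver and 8.35, 8.32 and 8.36 in wild-type liver. The adjacent pieces were thus at the wild-type level of the gene their label calls heterozygous, and they are called adjacent-labelled liver from here on. A gene was called, and is said to have risen or fallen, when its adjusted p in limma was under 0.05 and its difference was at least 2-fold. Every adjusted p below comes from that fit, adjusted over 13888 genes.

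Amino acid enzymes in the tumor lay below wild-type liver along almost every pathway, and lower in the adjacent-labelled liver as well. Against wild-type liver, 22 of 45 fell in the tumor (48.9%), against 4.59% of all 13888 genes tested and 10.2% of the 1976 genes with a mean over 10. A single member, Arg2, rose, where 8.41% of all genes and 7.79% of the bright ones did. The median member difference was -0.97, beside -0.013 over all genes. Counted at an adjusted p under 0.05 with no minimum fold, 41 members were lower and 1 was higher, against backgrounds of 30.2% and 33.2%.

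In adjacent-labelled against wild-type liver, 23 of 45 fell (51.1%) and 0 rose, with backgrounds of 3.22% and 8.29% over all genes and 6.22% and 7.03% over the bright ones. The median member difference was -1.01, beside -0.0078 over all genes. With no minimum fold, limma had 42 lower and 1, Gldc, higher, against 28.9% and 34.0%, and 1 was higher at an unadjusted p under 0.05. Of the 45 members, the pieces of tumor and wild-type liver overlapped for Glud1, and those of adjacent-labelled and wild-type liver for Arg2 and Agxt2. How often pieces overlapped over all genes was not counted, so this is not read as a trait of the members. Both comparisons against wild-type liver share the wild-type pieces. Ass1 and Arg2 passed the filter on dim probe sets through 1 group alone, and without them 21 of 43 members fell in tumor and 22 in adjacent-labelled liver against wild-type liver. In tumor against adjacent-labelled liver, by contrast, the members were spread around 0. Afmid, Prodh and Bhmt fell and Arg2 and Agxt rose, which is 6.67% and 4.44% of 45, beside backgrounds of 2.94% and 2.10% over all genes and 3.90% and 3.34% over the bright ones. The median was -0.090, beside -0.011 over all genes. With no minimum fold, 21 members were lower and 12 higher in the tumor, against 25.1% and 20.1%.

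**Figure D1:**
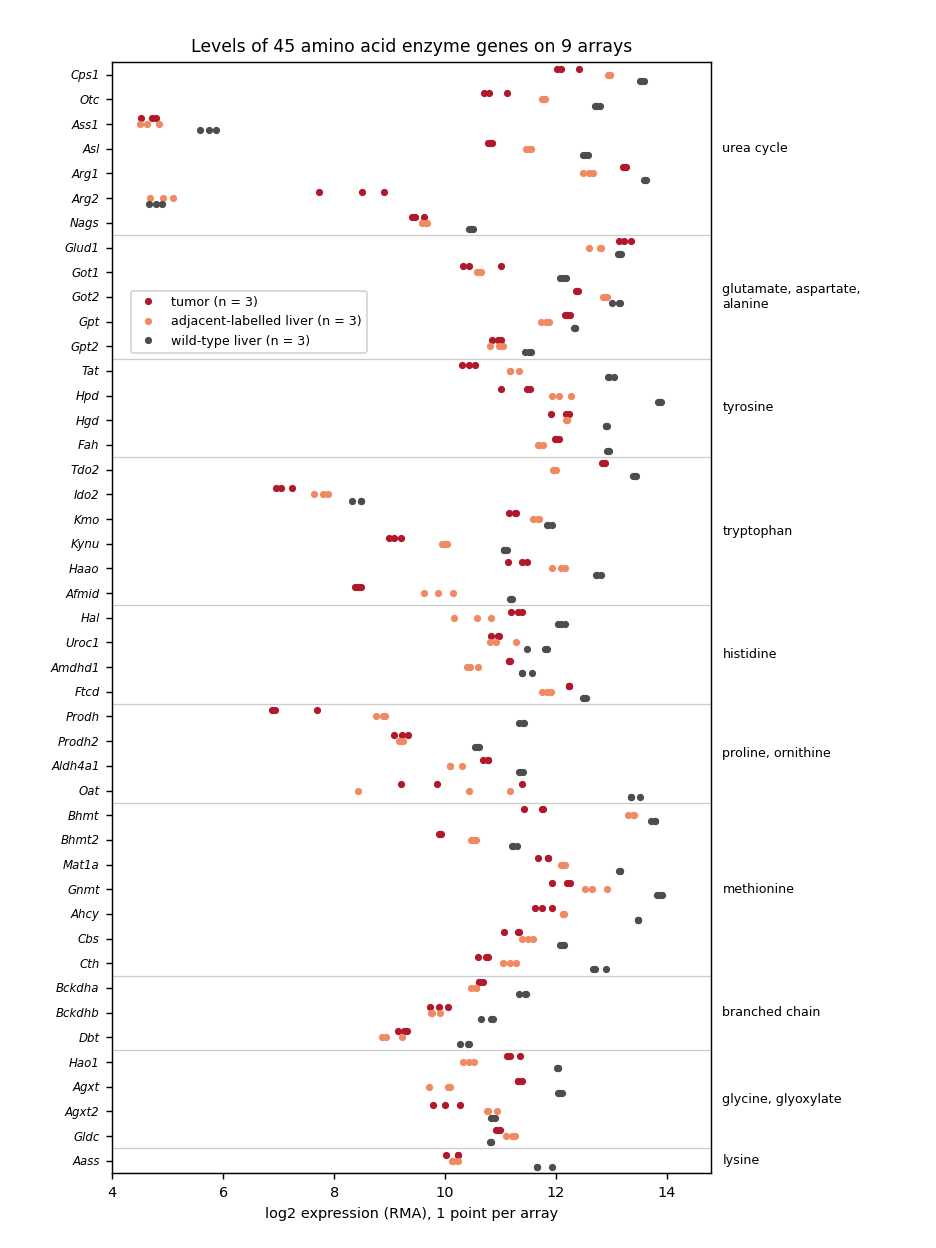
Log2 expression (x axis) of the 45 members (rows, grouped by pathway) on each array, 1 point per array, in tumor, adjacent-labelled liver and wild-type liver. Wild-type points lie to the right for most genes, Arg2 in the tumor lies far to the right of the other groups, and Oat is scattered in tumor and adjacent-labelled liver.

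In bulk tissue, fewer hepatocytes and less RNA per hepatocyte cannot be told apart, so markers of cell types were read beside the enzymes. Of 9 measured hepatocyte genes for secreted plasma proteins, among them albumin (Alb) and transthyretin (Ttr), none reached 2-fold in any of the comparisons, and their median difference from wild-type liver was 0.0016 in tumor and 0.0022 in adjacent-labelled liver. Single genes of the list ran from -0.31 to 0.30 in tumor minus wild-type liver, where limma gave an adjusted p under 0.05 for 4 lower and 3 higher ones. Their summed level, as log2, was 17.20 to 17.23 in tumor, 17.20 to 17.24 in adjacent-labelled liver and 17.24 to 17.24 in wild-type liver. These probe sets average 14.01 to 14.05, close to the brightest value on any array (14.51), and how far that compresses their differences was not tested.

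Some markers of other cells rose in the 2 comparisons against wild-type liver. Of all genes, 8.41% rose in tumor and 8.29% in adjacent-labelled liver. Of 7 macrophage markers, 3 rose in tumor and 3 in adjacent-labelled liver, with a summed log2 level of 13.49 to 13.81 in tumor, 13.57 to 13.72 in adjacent-labelled liver and 12.76 to 12.85 in wild-type liver. Clec4f alone of them had means below wild-type liver, at -0.057 in tumor and -0.24 in adjacent-labelled liver (adjusted p in limma, 0.872 and 0.473). Its pieces overlapped those of wild-type liver in both comparisons. In adjacent-labelled liver it read 10.57, 9.29 and 10.61, so piece 2 alone lay below the wild-type pieces (10.39, 10.36 and 10.43). Of 6 stellate cell and myofibroblast markers, 4 rose in each, with summed levels of 11.99 to 12.60, 12.38 to 12.86 and 10.06 to 10.71 in tumor, adjacent-labelled liver and wild-type liver. Both measured neutrophil markers rose in each, with 10.12 to 10.40 in tumor, 9.71 to 10.08 in adjacent-labelled liver and 7.07 to 7.59 in wild-type liver. Of 5 cholangiocyte markers 1, Cldn7, rose in each. Their summed level was 9.99 to 10.17 in tumor, 10.95 to 11.14 in adjacent-labelled liver and 8.76 to 8.86 in wild-type liver. For adjacent-labelled minus wild-type liver Cldn7 was at 5.31, Sox9 at 0.99, Krt7 at 0.21, Krt19 at -0.13 and Epcam at -0.064. For Krt7, Krt19 and Epcam limma gave adjusted p of 0.386, 0.508 and 0.619 there. Of 5 endothelial markers 1, Lyve1, rose in each (11.28 to 11.61, 11.14 to 11.42 and 11.12 to 11.31 in tumor, adjacent-labelled liver and wild-type liver). In each, 2 of the 5 lay below wild-type liver, Stab2 at -0.37 in tumor and -0.40 in adjacent-labelled liver and Kdr at -0.13 and -0.20. Of 5 T and B cell markers none was called by limma, with 0 lower and 3 higher in tumor and 0 lower and 1 higher in adjacent-labelled liver at an unadjusted p under 0.05 (8.87 to 8.93, 8.72 to 8.86 and 8.63 to 8.71 in the same order of groups). Between tumor and adjacent-labelled liver the single call among these lists was the cholangiocyte marker Cldn7, which fell, at 9.16 ± 0.17 in tumor and 10.66 ± 0.15 in adjacent-labelled liver, beside 5.36 ± 0.14 in wild-type liver. The part of these cells in the enzyme differences was not tested. With each array set to its own mean of the 9 secreted protein genes, 22 members fell in tumor and 20 in adjacent-labelled liver against wild-type liver.

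The urea cycle opens in the mitochondrion with Cps1, which makes carbamoyl phosphate, and Otc, which joins it to ornithine. Of 7 measured genes of the cycle, 4 fell and 1 rose in tumor against wild-type liver, beside 4.59% and 8.41% of all genes. In adjacent-labelled against wild-type liver 3 fell, beside 3.22% of all genes. Ass1, which passed the filter on dim probe sets through wild-type liver alone, is in both counts of falls. Arg2, the 1 that rose, passed it through tumor alone. Cps1 read 12.02, 12.10 and 12.41 in tumor, 12.94, 12.98 and 12.98 in adjacent-labelled liver and 13.52, 13.54 and 13.58 in wild-type liver. The 3 groups did not overlap: tumor was lowest, adjacent-labelled liver between, and wild-type liver highest. Tumor minus wild-type liver was -1.37 (SE 0.090, adjusted p = 3.31e-07), and tumor minus adjacent-labelled liver, under 2-fold, was -0.79 (SE 0.090, adjusted p = 5.06e-05). Otc showed the same order, at 11.11, 10.79 and 10.69 in tumor, 11.77, 11.80 and 11.75 in adjacent-labelled liver and 12.71, 12.75 and 12.80 in wild-type liver. Its tumor minus wild-type difference was -1.89 (SE 0.095, adjusted p = 4.32e-08) and its adjacent-labelled minus wild-type difference -0.98 (SE 0.095, adjusted p = 7.3e-06). A dimmer probe set of Otc passed the 2-fold limit in all the comparisons, at -2.39 for tumor minus wild-type, -1.04 for tumor minus adjacent-labelled and -1.35 for adjacent-labelled minus wild-type liver. The dimmest probe set of Otc gave -1.63, -0.24 and -1.38 in the same order. For its tumor minus adjacent-labelled difference limma gave an adjusted p, over all probe sets of 1 symbol, of 0.38.

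Asl, which splits argininosuccinate into arginine and fumarate, stood at 10.84, 10.81 and 10.77 in tumor, 11.46, 11.55 and 11.53 in adjacent-labelled liver and 12.51, 12.49 and 12.58 in wild-type liver. It fell in tumor, -1.72 (SE 0.056, adjusted p = 1.89e-09) against wild-type liver, and in adjacent-labelled liver, -1.01 (SE 0.056, adjusted p = 1.13e-07) against wild-type liver, the second of these just at the limit. Ass1, which forms argininosuccinate, was represented by a dim probe set, at 4.51, 4.78 and 4.72 in tumor, 4.63, 4.84 and 4.50 in adjacent-labelled liver and 5.58, 5.88 and 5.75 in wild-type liver. Only the wild-type pieces lay above the 40th percentile, so Ass1 entered the test through them and the size of its change depends on background. Another probe set, annotated to both Ass1 and the predicted gene Gm5424, was far brighter, at 11.69, 12.12 and 12.11 in tumor, 11.95, 12.26 and 12.15 in adjacent-labelled liver and 13.66, 13.63 and 13.71 in wild-type liver. Its tumor minus wild-type difference was -1.69 (SE 0.12, adjusted p = 4.44e-07) and its tumor minus adjacent-labelled difference -0.15 (SE 0.12, adjusted p = 0.354). It cannot be assigned to Ass1 alone. Nags, which makes the obligate activator of Cps1, was at 9.49 ± 0.11 in tumor, 9.63 ± 0.048 in adjacent-labelled liver and 10.46 ± 0.032 in wild-type liver (SD, n = 3), with differences from wild-type of -0.97 in tumor and -0.83 in adjacent-labelled liver, both under the limit.

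The arginases, which release urea from arginine, went different ways. Arg1, the cytosolic enzyme of hepatocytes, read 13.21, 13.27 and 13.24 in tumor, 12.60, 12.48 and 12.67 in adjacent-labelled liver and 13.60, 13.58 and 13.63 in wild-type liver. Here the adjacent-labelled pieces were the lowest, at -1.02 (SE 0.062, adjusted p = 2.22e-07) against wild-type liver, also just at the limit, and tumor lay above them by 0.65 (SE 0.062, adjusted p = 1.23e-05). Arg2, the mitochondrial arginase that is found mostly outside the liver, read 8.89, 8.49 and 7.72 in tumor, 4.90, 4.69 and 5.09 in adjacent-labelled liver and 4.79, 4.67 and 4.90 in wild-type liver. It was the only member that rose against wild-type liver, 12-fold in tumor over wild-type liver (log2 difference 3.58, SE 0.24, adjusted p = 3.19e-07) and the tumor was 11.1-fold over adjacent-labelled liver (3.48, SE 0.24, adjusted p = 1.27e-06). Both liver groups lay below the 40th percentile, so these folds depend on background, and Arg2 entered the test through the tumor. A second probe set gave 2.84 against wild-type and 2.99 against adjacent-labelled liver.

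Nitrogen reaches the cycle through glutamate and aspartate. Of 5 measured genes of this group 1 fell in each comparison with wild-type liver, beside 4.59% of all genes in tumor and 3.22% in adjacent-labelled liver. None was called between tumor and adjacent-labelled liver. With no minimum fold, limma had 1 lower and 2 higher there at an adjusted p under 0.05, beside 25.1% and 20.1% of all genes. The 5 genes gave the same counts at an unadjusted p under 0.05. Got1, the cytosolic aspartate aminotransferase, read 10.31, 10.43 and 11.02 in tumor, 10.64, 10.64 and 10.57 in adjacent-labelled liver and 12.18, 12.12 and 12.06 in wild-type liver. It fell, -1.53 (SE 0.15, adjusted p = 5.65e-06) in tumor and -1.51 (SE 0.15, adjusted p = 7.46e-06) in adjacent-labelled liver against wild-type liver, and tumor and adjacent-labelled pieces overlapped. Its mitochondrial counterpart Got2 was at 12.38 ± 0.018 in tumor, 12.89 ± 0.035 in adjacent-labelled liver and 13.10 ± 0.081 in wild-type liver, so the tumor difference from wild-type was -0.72, or -1.01 with its second probe set. Glud1, the glutamate dehydrogenase that frees ammonia in the mitochondrion, was among the 3 members with no difference between tumor and wild-type liver at an adjusted p under 0.05, at 0.091 (SE 0.077, adjusted p = 0.323). The others were the cytosolic alanine aminotransferase Gpt at -0.13 (SE 0.058, adjusted p = 0.0801) and Gldc. A dimmer probe set of Gpt gave -0.38 for tumor minus wild-type liver (adjusted p over all probe sets of 1 symbol, 0.00274). The mitochondrial alanine aminotransferase Gpt2 differed from wild-type liver by -0.56 in tumor and -0.56 in adjacent-labelled liver.

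Tyrosine breakdown starts with Tat, the aminotransferase that glucocorticoids and fasting induce, and goes on through Hpd, Hgd and Fah to fumarate and acetoacetate. Of these 4 genes, 2 fell in tumor and 3 in adjacent-labelled liver against wild-type liver, beside 4.59% and 3.22% of all genes. Tat read 10.31, 10.53 and 10.43 in tumor, 11.17, 11.18 and 11.33 in adjacent-labelled liver and 12.96, 12.93 and 13.04 in wild-type liver. Its fall was -2.55 (SE 0.073, adjusted p = 7.86e-10) in tumor and -1.75 (SE 0.073, adjusted p = 1.57e-08) in adjacent-labelled liver. Hpd, 4-hydroxyphenylpyruvate dioxygenase, read 11.54, 11.48 and 11.00 in tumor, 12.06, 12.28 and 11.92 in adjacent-labelled liver and 13.83, 13.86 and 13.89 in wild-type liver. That is 5.74-fold lower in tumor relative to wild-type liver (-2.52, SE 0.13, adjusted p = 6.78e-08). For both of these first enzymes tumor was lowest and wild-type liver highest, with no overlap between groups. Fah, fumarylacetoacetate hydrolase, read 12.04, 11.99 and 12.00 in tumor, 11.68, 11.69 and 11.76 in adjacent-labelled liver and 12.96, 12.94 and 12.92 in wild-type liver, so the adjacent-labelled pieces were the lowest (-1.23, SE 0.053, adjusted p = 1.85e-08 against wild-type liver). Hgd, homogentisate dioxygenase, differed from wild-type liver by -0.81 in tumor and -0.71 in adjacent-labelled liver, and tumor and adjacent-labelled pieces overlapped. For tumor minus adjacent-labelled liver its 2 probe sets disagreed, at -0.090 (adjusted p = 0.401) and, for the dimmer one, 0.87 (adjusted p over all probe sets of 1 symbol, 1.31e-05).

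Tryptophan is opened by Tdo2 in hepatocytes and taken by Afmid, Kmo, Kynu and Haao along the kynurenine path towards nicotinamide nucleotides. Of 6 measured genes, 4 fell in tumor and 3 in adjacent-labelled liver against wild-type liver, beside 4.59% and 3.22% of all genes. Afmid, which removes the formyl group of formylkynurenine, read 8.43, 8.38 and 8.48 in tumor, 9.61, 10.15 and 9.87 in adjacent-labelled liver and 11.19, 11.16 and 11.20 in wild-type liver. It fell in all the comparisons, 6.76-fold in tumor against wild-type liver (-2.76, SE 0.11, adjusted p = 8.23e-09), 2.73-fold against adjacent-labelled liver (-1.45, SE 0.11, adjusted p = 2.86e-06), and 2.48-fold in adjacent-labelled against wild-type liver (-1.31, SE 0.11, adjusted p = 2.59e-06). The mean of its probe sets took the last of these under the limit, to -0.91, and tumor minus adjacent-labelled liver to -0.77. Kynu, kynureninase, read 9.20, 9.08 and 8.99 in tumor, 9.99, 9.94 and 10.03 in adjacent-labelled liver and 11.07, 11.06 and 11.12 in wild-type liver, a tumor minus wild-type difference of -1.99 (SE 0.066, adjusted p = 2.15e-09) and an adjacent-labelled minus wild-type difference of -1.09 (SE 0.066, adjusted p = 2.15e-07). A second, dim probe set of Kynu, with a mean of 5.54 over the arrays, gave -0.17 and -0.60, neither at 2-fold (for the first, adjusted p over all probe sets of 1 symbol, 0.152). Haao, which makes the precursor of quinolinate, read 11.48, 11.39 and 11.13 in tumor, 11.93, 12.16 and 12.09 in adjacent-labelled liver and 12.82, 12.74 and 12.71 in wild-type liver, with -1.42 (SE 0.095, adjusted p = 3.48e-07) in tumor against wild-type liver.

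Tdo2 itself followed another order. It read 12.83, 12.86 and 12.89 in tumor, 11.97, 12.00 and 11.94 in adjacent-labelled liver and 13.39, 13.44 and 13.43 in wild-type liver. The adjacent-labelled pieces were the lowest, -1.45 (SE 0.052, adjusted p = 5.15e-09) against wild-type liver, and the tumor lay above them by 0.89 (SE 0.052, adjusted p = 4.94e-07) and below wild-type liver by a log2 difference of -0.56. Its 2 dimmer probe sets, further from the top of the scale, gave larger differences in the same directions, 1.82 and 1.83 for tumor minus adjacent-labelled liver and -2.71 and -2.97 for adjacent-labelled minus wild-type liver. Ido2, another dioxygenase of the tryptophan path at a lower level, read 6.94, 7.04 and 7.25 in tumor, 7.64, 7.89 and 7.80 in adjacent-labelled liver and 8.49, 8.33 and 8.47 in wild-type liver. It fell in tumor (-1.35, SE 0.093, adjusted p = 4.35e-07 against wild-type liver). Kmo, kynurenine monooxygenase, was at -0.65 in tumor and -0.22 in adjacent-labelled liver against wild-type liver.

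Histidine breakdown runs through Hal, Uroc1, Amdhd1 and Ftcd to glutamate. None of the 4 was called in tumor against wild-type liver, where their differences ran from -0.80 to -0.27. With no minimum fold, all 4 were lower there at an adjusted p under 0.05, beside 30.2% of all genes. Hal, histidase, fell in adjacent-labelled liver. It read 11.19, 11.32 and 11.39 in tumor, 10.17, 10.83 and 10.57 in adjacent-labelled liver and 12.09, 12.03 and 12.16 in wild-type liver. The adjacent-labelled difference from wild-type liver was -1.57 (SE 0.14, adjusted p = 3.25e-06), and tumor exceeded adjacent-labelled liver by 0.78 (SE 0.14, adjusted p = 0.000913). Amdhd1 and Ftcd also lay higher in tumor than in adjacent-labelled liver, by 0.68 and 0.41 (adjusted p = 3.08e-05 and 0.000222), whereas Uroc1 was at -0.082 (adjusted p = 0.647).

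Proline and ornithine breakdown held the members furthest below wild-type liver. Of 4 measured genes 3 fell in tumor and all 4 in adjacent-labelled liver, beside 4.59% and 3.22% of all genes. Prodh, the mitochondrial proline dehydrogenase, read 7.69, 6.94 and 6.87 in tumor, 8.76, 8.92 and 8.88 in adjacent-labelled liver and 11.41, 11.40 and 11.33 in wild-type liver. Groups did not overlap, and tumor was 18.6-fold below wild-type liver (-4.21, SE 0.18, adjusted p = 1.06e-08) and 3.21-fold below adjacent-labelled liver (-1.68, SE 0.18, adjusted p = 2.53e-05). Adjacent-labelled liver was itself -2.53 (SE 0.18, adjusted p = 5.82e-07) against wild-type liver. Prodh2, which acts on hydroxyproline, read 9.22, 9.08 and 9.33 in tumor, 9.17, 9.19 and 9.24 in adjacent-labelled liver and 10.60, 10.58 and 10.55 in wild-type liver. It lay -1.37 (SE 0.069, adjusted p = 4.34e-08) in tumor and -1.38 (SE 0.069, adjusted p = 5.39e-08) in adjacent-labelled liver against wild-type liver, and tumor and adjacent-labelled liver overlapped (0.012, SE 0.069, adjusted p = 0.909). Aldh4a1, which oxidises the product of Prodh to glutamate, read 10.77, 10.78 and 10.68 in tumor, 10.08, 10.08 and 10.31 in adjacent-labelled liver and 11.41, 11.34 and 11.35 in wild-type liver. It fell in adjacent-labelled liver (-1.21, SE 0.072, adjusted p = 2.01e-07) and was at -0.62 in tumor against wild-type liver.

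The promoters of 3 members, from 250 bases before to 50 bases after the annotated start, are shown because Prodh and Prodh2 both fell against wild-type liver while Prodh alone of them fell in tumor against adjacent-labelled liver, and because Hao1 lay above adjacent-labelled liver in the tumor. They were picked after their values and the motif matches were seen, and come from RefSeq, build GRCm38.p6, written 5′ to 3′ on the strand of the gene. Prodh is at chr16:18089141-18089440 (minus strand), Prodh2 at chr7:30493408-30493707 (plus strand) and Hao1 at chr2:134554303-134554602 (minus strand). Capitals mark the letters searched, on both strands. These were TATAAA, the TATA box. The core letters of sites for the hepatocyte factor HNF4A were CAAAGTC. Those for HNF1, another hepatocyte factor, were GTTAAT, one arm of its site.
Prodh: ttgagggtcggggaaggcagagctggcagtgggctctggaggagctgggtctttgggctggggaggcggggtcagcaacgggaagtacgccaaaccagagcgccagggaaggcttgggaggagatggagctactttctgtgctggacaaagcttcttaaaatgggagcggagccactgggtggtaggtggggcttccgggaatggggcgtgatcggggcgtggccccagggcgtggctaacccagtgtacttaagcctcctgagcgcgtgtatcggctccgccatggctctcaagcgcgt
Prodh2: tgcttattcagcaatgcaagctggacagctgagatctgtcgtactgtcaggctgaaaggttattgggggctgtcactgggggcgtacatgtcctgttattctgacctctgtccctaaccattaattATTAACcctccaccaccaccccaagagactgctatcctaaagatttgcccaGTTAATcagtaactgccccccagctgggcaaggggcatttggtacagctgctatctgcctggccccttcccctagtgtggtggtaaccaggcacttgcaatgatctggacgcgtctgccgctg
Hao1: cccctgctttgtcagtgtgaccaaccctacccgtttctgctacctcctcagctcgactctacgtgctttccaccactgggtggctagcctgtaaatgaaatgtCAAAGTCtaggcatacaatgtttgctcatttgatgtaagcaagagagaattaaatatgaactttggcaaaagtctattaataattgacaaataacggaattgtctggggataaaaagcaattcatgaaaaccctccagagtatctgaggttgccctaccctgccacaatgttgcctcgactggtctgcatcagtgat
Prodh2 held GTTAAT on the minus strand at -124 and on the plus strand at -73 relative to the start, and Hao1 held CAAAGTC at -147. None of these letters stood in the Prodh window, which was richer in G and C (63%, with 17 CG dinucleotides) than Prodh2 (52.7%, 5 CG) or Hao1 (44%, 5 CG). Promoter entries were matched for 35 of the 45 members, 37 windows in all. CAAAGTC stood in 4 of these 37 (10.8%) and in 4.44% of all 32851 windows, GTTAAT in 5 (13.5%) and in 7.1% of all, and TATAAA in 7 (18.9%) and in 13.6% of all. A match describes letters and is not a shown binding site.

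**Figure D2:**
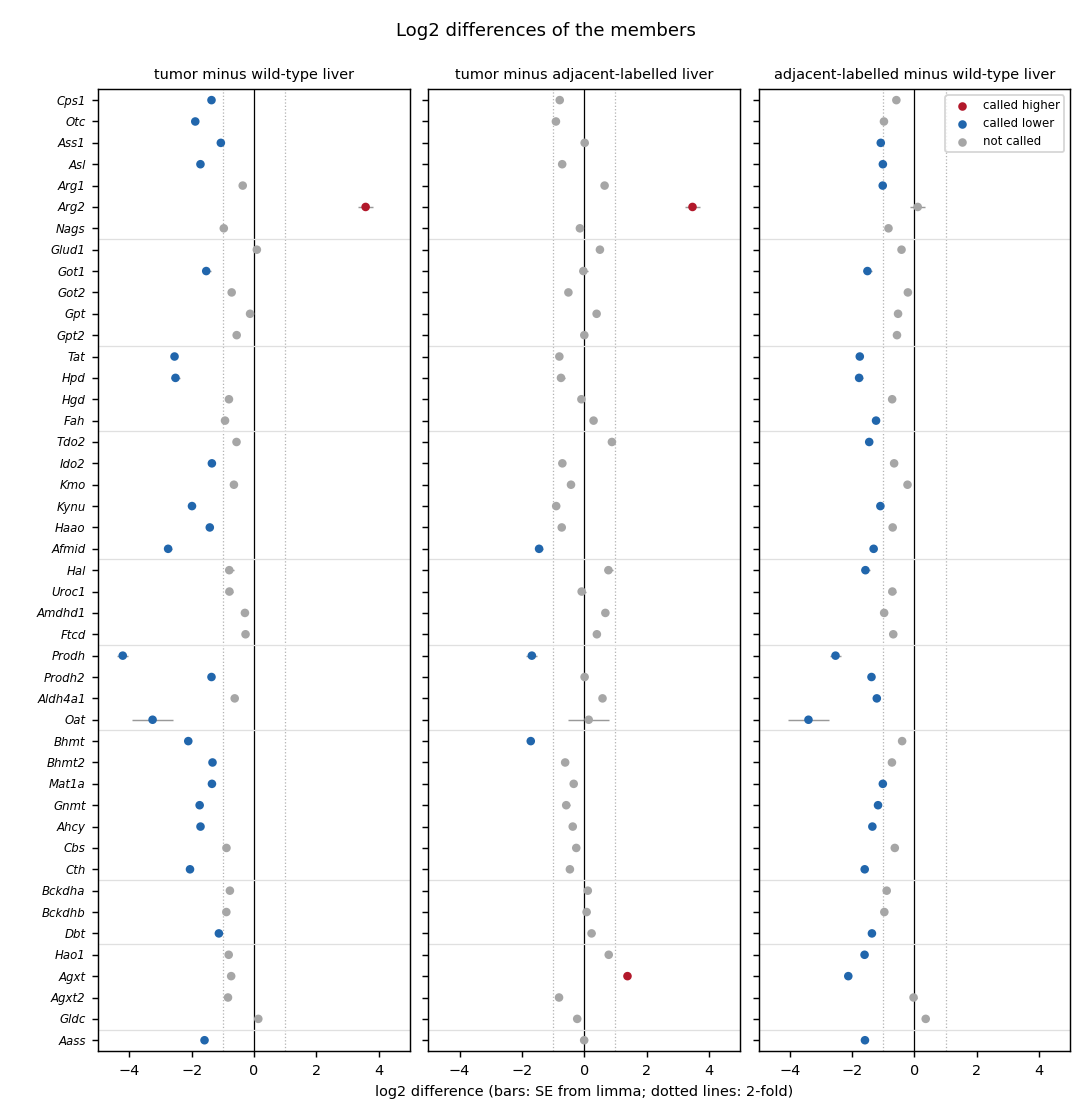
Log2 differences (x axis, with SE from limma) of the 45 members for tumor minus wild-type liver, tumor minus adjacent-labelled liver and adjacent-labelled minus wild-type liver, with dotted lines at 2-fold. Blue points were called lower and red points higher. Against wild-type liver most points lie left of 0, while tumor minus adjacent-labelled liver puts members on both sides.

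Oat, the ornithine aminotransferase of the pericentral zone, varied more between pieces than any other member. It read 11.38, 9.21 and 9.86 in tumor, 11.17, 8.42 and 10.43 in adjacent-labelled liver and 13.36, 13.34 and 13.52 in wild-type liver. The wild-type pieces lay close together, whereas the pieces of the tumor and of the adjacent-labelled liver spread over more than 2 log2 units and overlapped each other. Oat fell against wild-type liver, at -3.26 (SE 0.65, adjusted p = 0.00135) in tumor and -3.40 (SE 0.65, adjusted p = 0.00107) in adjacent-labelled liver. Its SD within groups, 1.04, ranked 2 of 13888 genes from the largest, while the next member, Arg2, had 0.37 and the median member 0.10, beside 0.096 over all genes. Other pericentral genes, chosen after their values were seen except for Glul, also varied between pieces. Glul read 11.30, 9.33 and 9.80 in tumor, 11.13, 10.19 and 11.07 in adjacent-labelled liver and 11.47, 11.56 and 11.85 in wild-type liver, and ranked 14. Cyp2e1, a pericentral cytochrome, read 12.38, 11.21 and 10.82 in tumor, 13.02, 11.04 and 12.58 in adjacent-labelled liver and 13.90, 13.93 and 14.17 in wild-type liver, and ranked 4. Slc1a2, a glutamate transporter, ranked 15, at 7.69, 6.19 and 5.85 in tumor and 7.11, 5.97 and 6.87 in adjacent-labelled liver, against 9.37, 9.45 and 9.77 in wild-type liver. Tbx3, a transcription factor, ranked 41, at 6.11, 4.97 and 5.50 in tumor and 6.02, 4.91 and 5.97 in adjacent-labelled liver, against 7.35, 7.49 and 7.48 in wild-type liver. Lgr5, a receptor of the Wnt pathway, ranked 76, at 6.79, 5.49 and 6.03 in tumor and 5.84, 5.43 and 5.32 in adjacent-labelled liver, against 7.49, 7.46 and 7.58 in wild-type liver. In the tumor the piece with the highest Oat, replicate 1, was also the highest for these 5 genes. In the adjacent-labelled liver the piece with the lowest Oat, replicate 2, was the lowest for Glul, Cyp2e1, Slc1a2 and Tbx3, whereas Lgr5 was lowest in replicate 3. How much pericentral tissue each piece held was not tested.

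**Figure D3:**
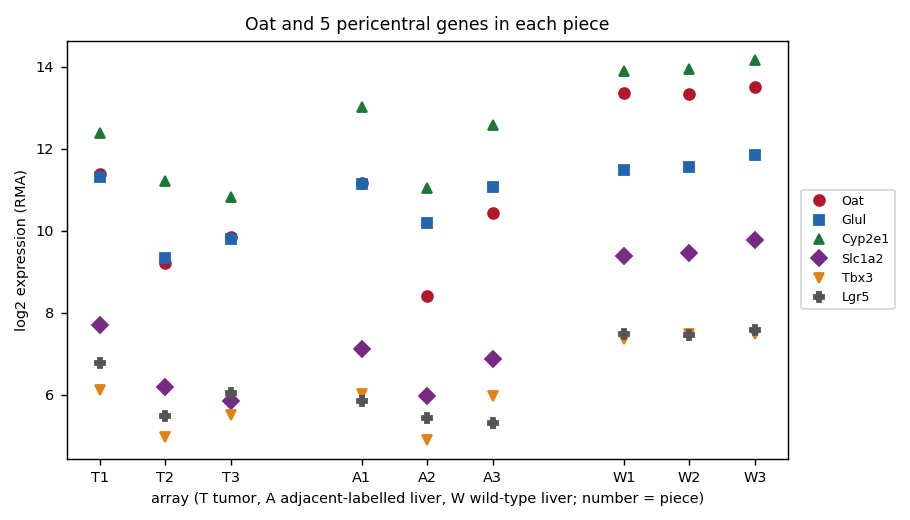
Log2 expression (y axis) of Oat and of the pericentral genes Glul, Cyp2e1, Slc1a2, Tbx3 and Lgr5 in each of the 9 pieces (x axis), 1 symbol per gene. In tumor piece 1 all 6 genes are at their highest of that group, and in adjacent-labelled piece 2 all but Lgr5 are at their lowest, while wild-type pieces differ less.

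Methionine is turned into S-adenosylmethionine by Mat1a, used by methyltransferases such as Gnmt, and recovered or drained through Ahcy, Bhmt, Cbs and Cth. Of 7 measured genes, 6 fell in tumor and 4 in adjacent-labelled liver against wild-type liver, beside 4.59% and 3.22% of all genes. It is the pathway in which all 7 were also lower in tumor than in adjacent-labelled liver at an adjusted p under 0.05. With no minimum fold, 25.1% of all genes were lower there. The 7 differences ran from -1.72 to -0.26, and Bhmt alone was called. Bhmt, which remethylates homocysteine with betaine, read 11.75, 11.77 and 11.43 in tumor, 13.38, 13.30 and 13.41 in adjacent-labelled liver and 13.78, 13.78 and 13.71 in wild-type liver. Most of its fall lay in the tumor, at -1.72 (SE 0.088, adjusted p = 2.1e-07) against adjacent-labelled liver and -2.11 (SE 0.088, adjusted p = 1.12e-08) against wild-type liver, and adjacent-labelled liver was at -0.39. Bhmt2, its neighbour that uses S-methylmethionine, read 9.89, 9.92 and 9.91 in tumor, 10.47, 10.53 and 10.56 in adjacent-labelled liver and 11.20, 11.22 and 11.30 in wild-type liver. It fell in tumor (-1.33, SE 0.056, adjusted p = 1.08e-08 against wild-type liver), in more even steps of -0.61 for tumor minus adjacent-labelled and -0.72 for adjacent-labelled minus wild-type liver.

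Mat1a read 11.85, 11.85 and 11.67 in tumor, 12.16, 12.09 and 12.13 in adjacent-labelled liver and 13.13, 13.15 and 13.14 in wild-type liver, with -1.35 (SE 0.063, adjusted p = 2.42e-08) for tumor and, just at the limit, -1.01 (SE 0.063, adjusted p = 2.53e-07) for adjacent-labelled liver against wild-type liver. Gnmt, glycine N-methyltransferase, read 12.25, 12.19 and 11.92 in tumor, 12.53, 12.92 and 12.65 in adjacent-labelled liver and 13.92, 13.87 and 13.83 in wild-type liver. It fell in both, at -1.75 (SE 0.11, adjusted p = 2.25e-07) in tumor and -1.17 (SE 0.11, adjusted p = 5.73e-06) in adjacent-labelled liver against wild-type liver. Ahcy, which clears S-adenosylhomocysteine, read 11.93, 11.74 and 11.62 in tumor, 12.13, 12.14 and 12.13 in adjacent-labelled liver and 13.49, 13.48 and 13.48 in wild-type liver, and fell in both, at -1.72 (SE 0.075, adjusted p = 1.59e-08) in tumor and -1.35 (SE 0.075, adjusted p = 1.24e-07) in adjacent-labelled liver. On the transsulfuration branch, Cth, the cystathionine gamma-lyase that yields cysteine, read 10.74, 10.78 and 10.59 in tumor, 11.05, 11.28 and 11.16 in adjacent-labelled liver and 12.67, 12.70 and 12.90 in wild-type liver. It was 4.16-fold lower in tumor relative to wild-type liver (-2.06, SE 0.087, adjusted p = 1.17e-08) and 3.02-fold lower in adjacent-labelled liver (-1.60, SE 0.087, adjusted p = 9.89e-08). Cbs, the enzyme before it, was at 11.23 ± 0.15 in tumor, 11.48 ± 0.098 in adjacent-labelled liver and 12.11 ± 0.036 in wild-type liver, -0.88 for tumor minus wild-type liver, or -1.07 with a second probe set.

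Branched-chain keto acids are oxidised by a mitochondrial complex whose decarboxylase subunits are Bckdha and Bckdhb and whose core is Dbt. Dbt fell in both comparisons with wild-type liver. It read 9.14, 9.26 and 9.32 in tumor, 8.93, 9.22 and 8.86 in adjacent-labelled liver and 10.26, 10.42 and 10.42 in wild-type liver, -1.13 (SE 0.097, adjusted p = 2.49e-06) in tumor and -1.36 (SE 0.097, adjusted p = 7.24e-07) in adjacent-labelled liver. Bckdha and Bckdhb stayed under the limit, at -0.77 and -0.89 in tumor and at -0.89 and -0.97 in adjacent-labelled liver against wild-type liver. None of the 3 subunits passed an adjusted p of 0.05 between tumor and adjacent-labelled liver, where limma gave 0.11 (adjusted p = 0.145), 0.077 (adjusted p = 0.554) and 0.24 (adjusted p = 0.0723). Aass, which starts lysine breakdown, read 10.24, 10.24 and 10.01 in tumor, 10.14, 10.13 and 10.23 in adjacent-labelled liver and 11.66, 11.66 and 11.93 in wild-type liver. It fell against wild-type liver, -1.59 (SE 0.090, adjusted p = 1.02e-07) in tumor and -1.59 (SE 0.090, adjusted p = 1.34e-07) in adjacent-labelled liver, and tumor and adjacent-labelled liver overlapped.

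Glyoxylate, an oxalate precursor, is made from glycolate by Hao1 and turned to glycine by Agxt, and both were lowest in the adjacent-labelled liver. Agxt read 11.31, 11.31 and 11.39 in tumor, 9.70, 10.09 and 10.05 in adjacent-labelled liver and 12.06, 12.03 and 12.11 in wild-type liver. It fell 4.35-fold in adjacent-labelled against wild-type liver (-2.12, SE 0.093, adjusted p = 2.1e-08), and rose 2.62-fold in tumor against adjacent-labelled liver (1.39, SE 0.093, adjusted p = 1.18e-06). Tumor minus wild-type liver was -0.73. Hao1 read 11.34, 11.17 and 11.12 in tumor, 10.52, 10.33 and 10.43 in adjacent-labelled liver and 12.03, 12.03 and 12.02 in wild-type liver, -1.60 (SE 0.073, adjusted p = 2.78e-08) for adjacent-labelled minus wild-type and 0.79 (SE 0.073, adjusted p = 1.07e-05) for tumor minus adjacent-labelled liver. Agxt2, a mitochondrial aminotransferase, was lowest in the tumor, at 10.02 ± 0.24 in tumor, 10.83 ± 0.10 in adjacent-labelled liver and 10.85 ± 0.036 in wild-type liver. It was -0.81 (SE 0.11, adjusted p = 0.000122) for tumor minus adjacent-labelled liver and did not pass for adjacent-labelled minus wild-type liver (-0.028, SE 0.11, adjusted p = 0.832). Gldc, the decarboxylase of the glycine cleavage system, was the member whose group means lay closest together, at 10.96 ± 0.036 in tumor, 11.19 ± 0.080 in adjacent-labelled liver and 10.82 ± 0.018 in wild-type liver.

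**Figure D4:**
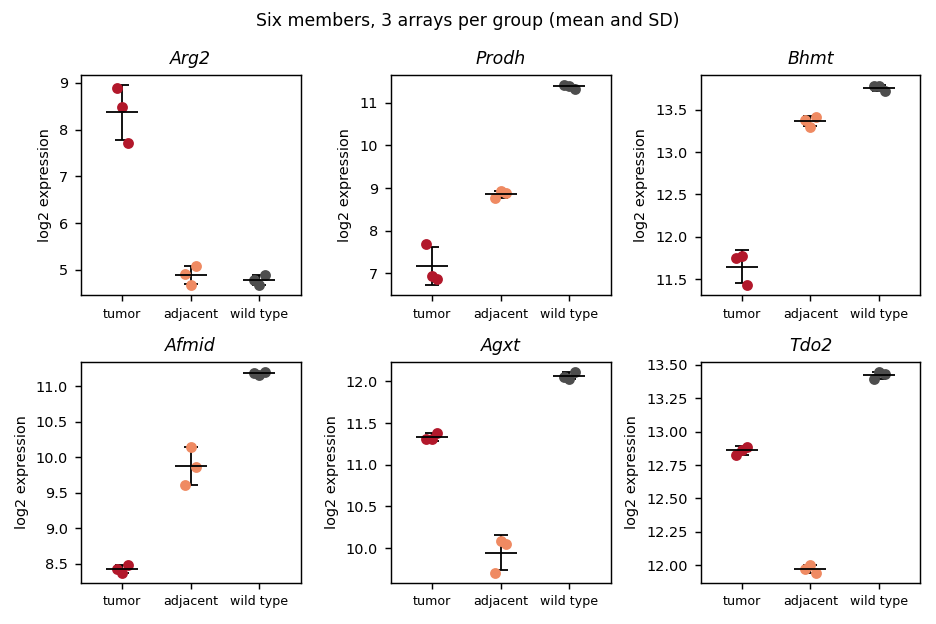
Log2 expression (y axes, each with its own range) of Arg2, Prodh, Bhmt, Afmid, Agxt and Tdo2 in tumor, adjacent-labelled liver and wild-type liver, with 1 point per array and the mean and SD. Arg2 stands out in the tumor, Prodh and Afmid are lowest in tumor and highest in wild-type liver, Bhmt is low in the tumor, and Agxt and Tdo2 are lowest in adjacent-labelled liver.

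By compartment, 18 measured members are mitochondrial. Agxt, which belongs to both compartments, is counted among the 27 others. Of the 18, 7 fell and 1 rose in tumor against wild-type liver, with a median of -0.86, and of the 27 others 15 fell, with a median of -1.33. Of all genes, 4.59% fell and 8.41% rose. The 1 that rose was Arg2, which entered the test through the tumor alone. In adjacent-labelled against wild-type liver the counts that fell were 6 of 18 and 17 of 27, beside 3.22% of all genes. The difference between the compartments was not tested.

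Of 46 tested genes of the same pathways outside the 49, 19 (41.3%) fell and 2 (4.35%) rose in tumor against wild-type liver, with a median of -0.85, beside 4.59% and 8.41% of all genes. With no minimum fold, 33 were lower and 9 higher, beside 30.2% and 33.2% of all genes. Whether these genes differ as a list from the 45 was not tested. Those with the smallest adjusted p were Aadat, an aminotransferase of kynurenine and aminoadipate, at -3.05 (SE 0.067, adjusted p = 1.29e-10), the choline-path enzyme Dmgdh at -2.56 (SE 0.060, adjusted p = 2.08e-10), glutaryl-CoA dehydrogenase (Gcdh) at -2.10 and the mitochondrial ornithine carrier Slc25a15 at -1.74. The 2 that rose build amino acids: Aldh18a1, which starts proline synthesis, at 3.07 (SE 0.15, adjusted p = 2.73e-08), and asparagine synthetase (Asns) at 2.18 (SE 0.19, adjusted p = 2.49e-06). Aldh18a1 read 7.45, 7.55 and 7.42 in tumor, 8.59, 8.03 and 8.66 in adjacent-labelled liver and 4.25, 4.54 and 4.41 in wild-type liver, the last below the 40th percentile, so its fold depends on background.

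In adjacent-labelled against wild-type liver 17 of 46 (37%) fell and 3 (6.52%) rose, beside 3.22% and 8.29% of all genes. With no minimum fold, 31 were lower and 9 higher, beside 28.9% and 34.0% of all genes. The smallest adjusted p among those that fell belonged to Pccb, of propionyl-CoA carboxylase, at -1.58 (SE 0.054, adjusted p = 3.9e-09), Gstz1 of the tyrosine path at -1.64, Dmgdh at -1.58 and Mccc2 of the leucine path at -1.35. Aldh18a1, Asns and the peroxisomal oxidase Hao2 rose, at 4.03, 1.21 and 1.79. Between tumor and adjacent-labelled liver 3 fell and 1 rose, beside 2.94% and 2.10% of all genes. Those that fell were Aadat at -1.51 (SE 0.067, adjusted p = 8.27e-08), Csad, the decarboxylase of taurine synthesis, at -2.71 (SE 0.13, adjusted p = 1.73e-07), and Hao2 at -2.62 (SE 0.16, adjusted p = 7.89e-07), and Kyat1, a kynurenine aminotransferase, rose, by 1.76 (SE 0.097, adjusted p = 3.2e-07).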

How the data were processed

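Total RNA of 9 liver pieces was hybridised to Affymetrix arrays of 45101 probe sets read in 1 colour, 3 arrays per group, a number that limits precision. The authors deposited log2 values, made by RMA (Expression Console 1.3.1.187, according to the submitters' processing notes). The platform annotation gave 34958 probe sets a single symbol and 932 several; only the first kind named genes. Of 18194 genes, 13888 exceeded each array's 40th percentile on 3 or more arrays and were tested.

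Group means were compared with limma 3.58.1 (R 4.3.3; lmFit and eBayes over all 9 arrays, 6 residual degrees of freedom), p-values were adjusted by Benjamini-Hochberg, and a call needed an adjusted p under 0.05 and 2-fold. On simulated data the step recovered 99% or more of changes of 2 log2 units in each comparison. Members, lists and tests were chosen with earlier results of these data known. All measured members are named; of other pathway genes, up to 4 per direction and comparison with the smallest adjusted p. Alternatives changed the threshold, filter, probe set rule, normalization, variance model, arrays fitted, replicate block and single arrays. No processing batch is recorded in the labels used. Promoter windows came from RefSeq (GRCm38.p6).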

Additional observations from a re-analysis of the deposited data

How the results depend on the processing

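With no minimum fold, 41 members, 33 other pathway genes and 4193 of all genes were lower and 1, 9 and 4606 were higher in tumor than in wild-type samples; 21, 20 and 3480 were lower and 12, 11 and 2794 higher than in adjacent-labelled liver. The same count gave 42, 31 and 4017 lower and 1, 9 and 4728 higher in adjacent-labelled against wild-type liver. At 1.5-fold, 36, 29 and 1431 were lower in tumor than in wild-type samples, with 2296 of all genes higher; 13, 11 and 1171 were lower and 8, 3 and 837 higher than in adjacent-labelled liver. In adjacent-labelled against wild-type liver 35 members and 1093 of all genes were then lower and 2296 of all genes higher. Other pathway genes higher in tumor than in adjacent-labelled liver numbered 1, but 2 with the mean of probe sets and 3 with the second probe set, and 1 to 2 without single arrays (2 without adjacent piece 1 or tumor piece 2); those lower numbered 3, but 5 with array weights and 3 to 5 without single arrays (5 without adjacent piece 2). Counts of members called stayed within 1.5 times under the other alternatives, at 21 to 22 lower in tumor and 22 to 25 in adjacent-labelled liver against wild-type liver without single arrays. With a replicate block the members called lower were 22 in tumor and 23 in adjacent-labelled liver against wild-type liver and 3 in tumor against adjacent-labelled liver. Deviations of same-numbered pieces correlated at -0.113 to 0.138, so the numbers were not taken to pair pieces.

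Calls near the 2-fold limit were lost for Asl, Arg1 and Mat1a in adjacent-labelled liver (-0.99, -0.996 and -0.99 with array medians subtracted; -1.03 to -0.99, -1.06 to -0.97 and -1.03 to -0.996 without single arrays, lost without wild-type piece 3 or adjacent piece 1 for Asl and without adjacent piece 2 for the others) and for Ass1 in tumor (-1.14 to -0.99 without single arrays, lost without wild-type piece 2 or tumor piece 1). After cyclic loess Ass1 lost its call in tumor (-0.92) and in adjacent-labelled liver (-0.93) against wild-type liver. Signs turned mostly where tumor and adjacent-labelled liver lay close. With the second probe set tumor minus adjacent-labelled liver was -0.080 for Gpt2, 0.87 for Hgd (0.39 with the mean), 0.42 for Kynu and 0.044 for Uroc1, and tumor minus wild-type was -0.027 for Glud1. Arg2 in adjacent-labelled minus wild-type liver became -0.15 (-0.020 with the mean). With array medians subtracted Ass1, Gpt2 and Prodh2 were at -0.0027, -0.014 and -0.0049. Aass was at 0.022 after cyclic loess and 0.0072 relative to secreted protein genes. With array weights Gpt2, Uroc1, Prodh2, Oat and Aass were at -0.034, 0.025, -0.026, -0.69 and 0.036. Without single arrays tumor minus adjacent-labelled liver ran over -0.048 to 0.075 (Prodh2), -0.065 to 0.058 (Gpt2), -0.17 to 0.054 (Uroc1), -0.65 to 0.73 (Oat), -0.062 to 0.10 (Ass1), -0.039 to 0.073 (Aass), -0.24 to 0.11 (Got1), -0.0048 to 0.16 (Bckdhb) and -0.15 to 0.0072 (Hgd), and adjacent-labelled minus wild-type liver over -0.086 to 0.0055 for Agxt2. The probe set of Ass1 and Gm5424, chosen after seeing the data, gave -0.15. The cause was not tested. Differences of Ass1 and Arg2 are limited by signal near background; compression of the brightest probe sets was not tested.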
